A study of Mus musculus with 3 samples.

Results

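The 8 genes of red cell formation and haem synthesis followed here are Gata1, Klf1, Epor, Tfrc, Alas2, Urod, Fech and Car2. The members were taken as all probe sets that the platform annotation pairs with 1 of these symbols and no other, which gave 14 probe sets for 8 genes, out of 45037 probe sets and 18193 genes on the arrays. RNA came from the lineage-negative, Sca-1 positive bone marrow cells of 10-week-old mice, where blood stem cells and early progenitors are enriched. There were 3 arrays: 1 of wild type mice, 1 of the transgenic Line 6 and 1 of the transgenic Line 3, all of the strain C57BL/6J. Both lines are labelled Tg(Ly6a-KDM1A*v2, a construct named after Ly6a, the gene for Sca-1, and KDM1A, the histone demethylase LSD1, and what drives it is known here only from that name. How many mice were pooled, their sex and the antibodies of the lineage depletion are not stated in these sources. The question was how the erythroid genes differed between wild type and each line, and between the lines. No genotype had a second array, so differences come without a replicate error.

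Red cells form from progenitors that switch on the transcription factors GATA1 and KLF1, respond to erythropoietin through its receptor and take up transferrin-bound iron through the transferrin receptor. Haem is built from glycine and succinyl-CoA by a chain of enzymes that begins and ends in the mitochondrion, and the erythroid enzyme of its opening step, ALAS2, sets the pace in red cell precursors. Most committed erythroid progenitors of mouse bone marrow have lost Sca-1, so a Sca-1 positive fraction is not the usual source of these cells.

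The promoters of Alas2, Klf1 and Epor are shown because each holds the letters GATAA, the core of the sequence that GATA factors bind, on the reverse strand (TTATC). RefSeq promoter windows (build GRCm38.p6) were matched for 6 of the 8 members, in 7 windows, since Tfrc has 2, which overlap. The Gata1 window, counted but not printed, lies inside the span of the gene, before a downstream start. Each sequence is the 250 bases before the annotated start, 5′ to 3′ on the gene's strand, with the GATA match in capitals.
Alas2 (chrX:150547167-150547416, plus strand): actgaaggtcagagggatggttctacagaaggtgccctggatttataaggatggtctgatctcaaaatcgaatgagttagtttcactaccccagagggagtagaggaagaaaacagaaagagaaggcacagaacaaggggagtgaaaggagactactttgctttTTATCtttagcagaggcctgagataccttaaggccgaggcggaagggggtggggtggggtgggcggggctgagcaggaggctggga
Klf1 (chr8:84901732-84901981, plus strand): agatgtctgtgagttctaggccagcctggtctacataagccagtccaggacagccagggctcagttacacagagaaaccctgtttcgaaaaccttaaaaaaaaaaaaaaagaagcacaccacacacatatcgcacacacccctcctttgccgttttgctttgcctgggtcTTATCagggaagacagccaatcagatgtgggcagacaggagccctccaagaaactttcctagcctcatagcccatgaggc
Epor (chr9:21963577-21963826, minus strand): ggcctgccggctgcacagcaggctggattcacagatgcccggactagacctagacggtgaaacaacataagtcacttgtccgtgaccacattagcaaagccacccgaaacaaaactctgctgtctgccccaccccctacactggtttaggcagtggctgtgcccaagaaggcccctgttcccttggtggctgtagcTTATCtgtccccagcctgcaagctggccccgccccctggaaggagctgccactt

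The match lay 82 to 86 bases before the start in Alas2, 76 to 80 in Klf1 and 50 to 54 in Epor. GATAA, searched on both strands, occurred in 3 of the 7 member windows and in 22.6% of the 32851 promoter windows in the table. For the CACCC boxes that KLF factors bind, the pattern CCNCNCCC was searched on both strands with overlapping matches counted. It occurred in 5 of the 7 windows and in 45.9% of all windows. Alas2 held 4 such matches and Epor 4, both with overlaps, while Klf1 held no match to this pattern. The pattern needs more letters than CACCC alone. It therefore misses the letters CACCC that stand in the printed Klf1 window (cacacccctcc) and in part of that of Epor (gccacccga). The 5 windows include both Tfrc windows and the Gata1 window inside that gene, which held 3 such matches and no GATAA. These matches describe letters in a window, not binding in these cells.

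All 8 members were well expressed by the measure available. The brightest probe set of every member lay above the array's median intensity (96.2 with wild type RNA, 116 with Line 6 RNA and 99.0 with Line 3 RNA) on all 3 arrays, so the filter on dim genes, which kept 10864 of 18193 genes, kept all 8. The 1 member probe set below the array medians was the dimmest of the 4 for Fech. Differences are given on the scale log2(intensity + 16), on which 1 is 2-fold, and only genes at 2-fold or more were counted as higher or lower.

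**Figure D1:**
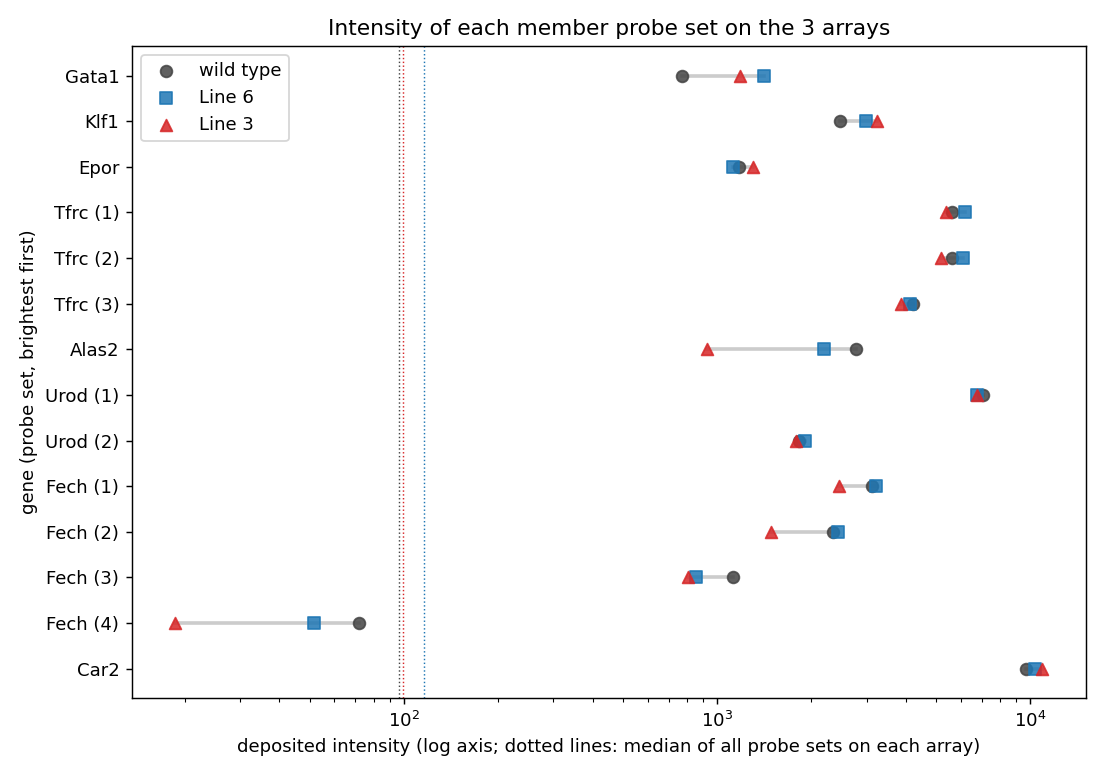
Deposited intensity (log axis) of the 14 probe sets of the 8 members on the wild type (circle), Line 6 (square) and Line 3 (triangle) arrays. Alas2 lies at 928 in Line 3 against 2782 in wild type, Gata1 lies lowest in wild type, and the Line 3 point is the lowest on all 4 Fech probe sets.

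Against wild type, 5 of the 8 members lay within 1.2-fold in Line 6 and 4 in Line 3, and Alas2 and Gata1 were the ones past 1.5-fold on their brightest probe sets. Alas2 was 2.96-fold lower in Line 3 and 1.26-fold in Line 6. Gata1 was higher by 1.82-fold in Line 6 and by 1.52-fold in Line 3. In Line 6, 0 of 8 members passed 2-fold, where 4.98% of all 10864 genes did (2.57% higher, 2.41% lower). In Line 3, 1 of 8 was at least 2-fold lower and 0 were higher, where 8.03% of all genes passed (3.57% higher, 4.46% lower). Among the 6868 brighter genes, with at least 1 array at or above its percentile 75, 0.87% were higher and 2.30% lower in Line 6. In Line 3 the shares of these brighter genes were 1.63% and 4.38%. All 8 members are among them. The median difference of the 8 was 0.07 in Line 6 and 0.04 in Line 3, beside 0.06 and 0.12 over all genes. After centring, the members' Line 6 median turned to -0.16. The 2 comparisons share the wild type array. At a limit of 1.5-fold, 1 of 8 members was higher and 0 lower in Line 6 (9.27% and 6.93% of all genes), and 1 was higher and 1 lower in Line 3 (15.1% and 10.3%).

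The scaling moved the balance of all genes. Of the genes past 2-fold from wild type in Line 6, 51.6% were higher as deposited. That share was 23.5% once each array was centred on its median, 32.3% with cyclic loess and 34.0% with quantile normalization. Centring took 0.24 off every Line 6 difference from wild type and turned the median of all genes from 0.06 to -0.17.

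Gata1 encodes the zinc finger factor that drives erythroid and megakaryocyte genes. It read 773 on the wild type, 1416 on the Line 6 and 1187 on the Line 3 array. The wild type array was the low one, and both lines lay above it. The differences were 0.86 in Line 6 and 0.61 in Line 3, both short of 2-fold, and 7.12% and 23.8% of all genes lay at least as far from 0 in the same comparisons. Among the 6868 brighter genes 4.41% and 18.0% did. Over the 3 other scalings the Line 6 difference went down to 0.62 and that of Line 3 to 0.54. A single probe set represents Gata1.

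Gata1 is also active in mast cells, basophils, eosinophils and megakaryocytes, whose markers were measured on the same arrays. All 6 eosinophil markers on the arrays were above 0 in both lines, where 57.6% of all genes were in Line 6 and 60.6% in Line 3. Their medians were 0.65 and 0.51, and that of Line 6 was 0.41 after centring. Ccr3 was at 1.17 in Line 6, past 2-fold, and at 0.11 in Line 3. The summed intensity of the eosinophil markers was 40453 in wild type cells, 54174 in those of Line 6 and 51584 in those of Line 3. Of 6 mast cell and basophil markers kept, 4 were at least 2-fold higher in Line 3 and 0 in Line 6, beside 3.57% and 2.57% of all genes. Over all 10 on the arrays, dim ones included, 4 were higher in Line 3 and 2 in Line 6, so the 0 rests on the filter. The sum over the 10 was 13163, 12198 and 22444. The 4 kept markers higher in Line 3 lay 0.10 to 0.37 above wild type in Line 6. Hdc, the brightest marker in wild type and named after its values were seen, went the other way. It read 6211, 3677 and 4343, differences of -0.75 and -0.51, and weighs heavily in the sums. Among the 10 megakaryocyte and platelet markers at or above the median in wild type, 1 was at least 2-fold higher in Line 6, the platelet chemokine gene Pf4 (2.29-fold), 1 was lower, Thbs1, and 0 passed in Line 3. Gp5 (2.01-fold) was kept only through Line 6, where it is high, so its call rests on the filter. The marker intensities came to 5228, 6092 and 5213 over 13 genes. Pf4 and Gp5 lay inside 2-fold after centring, at 0.96 and 0.77. All eosinophil markers were above the array median on every array, and among the defining mast cell genes the proteases Cma1, Tpsb2, Tpsab1 and Mcpt4 were dim. The part of these cells in the Gata1 difference was not tested. In bulk RNA, fewer cells of a type and less RNA per cell cannot be told apart.

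Klf1, a zinc finger factor that activates beta-globin and other red cell genes, read 2475 with wild type RNA, 2986 with Line 6 RNA and 3240 with Line 3 RNA. Its levels were thus in the order wild type, Line 6, Line 3, with differences of 0.27 and 0.39. In each comparison 43.0% or more of all genes lay at least as far from 0, so these steps are no larger than those of many other genes. After centring, the Line 6 difference of Klf1 was 0.03.

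Epor, the receptor for erythropoietin, read 1178 on the wild type, 1124 on the Line 6 and 1304 on the Line 3 array. The arrays lay close together, with differences of -0.07 and 0.14, and 84.3% and 76.0% of all genes were at least as far from 0. After centring, the Line 6 difference of Epor was -0.30.

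Tfrc, the transferrin receptor that imports iron into dividing and haem-making cells, had 3 probe sets. The brightest read 5632 in wild type cells, 6203 in those of Line 6 and 5386 in those of Line 3. The next read 5631, 6088 and 5187, and the third 4225, 4139 and 3860. Line 3 was the lowest array on all 3 probe sets, by at most 0.13 from wild type, and Line 6 was above wild type on 2 of them. The Line 6 difference of the brightest probe set, 0.14, turned to -0.10 after centring. The 14 proliferation genes on the arrays had median differences of 0.06 and -0.11, none past 2-fold, and the Line 6 median turned to -0.18 after centring.

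Alas2, the erythroid form of aminolevulinate synthase, was the member furthest from wild type. It read 2782 with wild type RNA, 2198 with Line 6 RNA and 928 with Line 3 RNA. On the deposited scale Line 6 lay nearer to wild type, and Line 3 stood apart below both. The differences were -0.34 in Line 6 and -1.57 in Line 3, and after centring the Line 6 difference of Alas2 was -0.57. Of 10864 genes, 201 had a lower difference than Alas2 in Line 3, and 2.43% lay at least as far from 0, as did 2.21% of the 6868 brighter genes. The Line 3 value ran from -1.62 to -1.52 over all scalings, pseudocounts and filters, and it rests on 1 probe set, of the kind that matches several transcripts of the same gene. Its promoter window, printed earlier, held 1 GATA match and 4 CACCC-type matches.

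The ubiquitous form of the same enzyme, Alas1, lay on both sides of wild type. Alas1 read 3887 on the wild type, 3384 on the Line 6 and 4248 on the Line 3 array, with differences of -0.20 and 0.13. Its second probe set gave -0.23 and 0.13.

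Urod, which decarboxylates uroporphyrinogen in the middle of the pathway, read 7086 in wild type cells, 6759 in those of Line 6 and 6773 in those of Line 3 on its brighter probe set. The dimmer one read 1823, 1904 and 1780. The 3 arrays differed by at most 0.07 from wild type on either probe set in either line on the deposited scale, and after centring Urod was at -0.30 in Line 6. The brighter probe set is of a kind whose probes can match other transcripts.

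Fech, the ferrochelatase that inserts iron into protoporphyrin in the last step, had 4 probe sets. The brightest read 3121 with wild type RNA, 3223 with Line 6 RNA and 2457 with Line 3 RNA. The others read 2339, 2434 and 1490, then 1127, 858 and 807, and the dimmest 71.7, 51.7 and 18.6. The Line 3 array was the lowest of the 3 on all 4 probe sets. Against wild type they gave -0.34, -0.64, -0.47 and -1.34 in Line 3. In Line 6 the brighter pair gave 0.05 and 0.06 and the other pair -0.39 and -0.37, so the probe sets disagree there, and after centring the brightest was at -0.19. The dimmest lay below the array medians, where background is not known.

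Car2, a carbonic anhydrase abundant in red cells and also made by other marrow cells, read 9654 on the wild type, 10326 on the Line 6 and 10907 on the Line 3 array. These values lay within 0.18 of wild type on the log2 scale as deposited, and the Line 6 difference of 0.10 turned to -0.14 after centring. Its neighbour in function, Car1, read 2393, 2949 and 4071, with differences of 0.30 and 0.76.

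**Figure D2:**
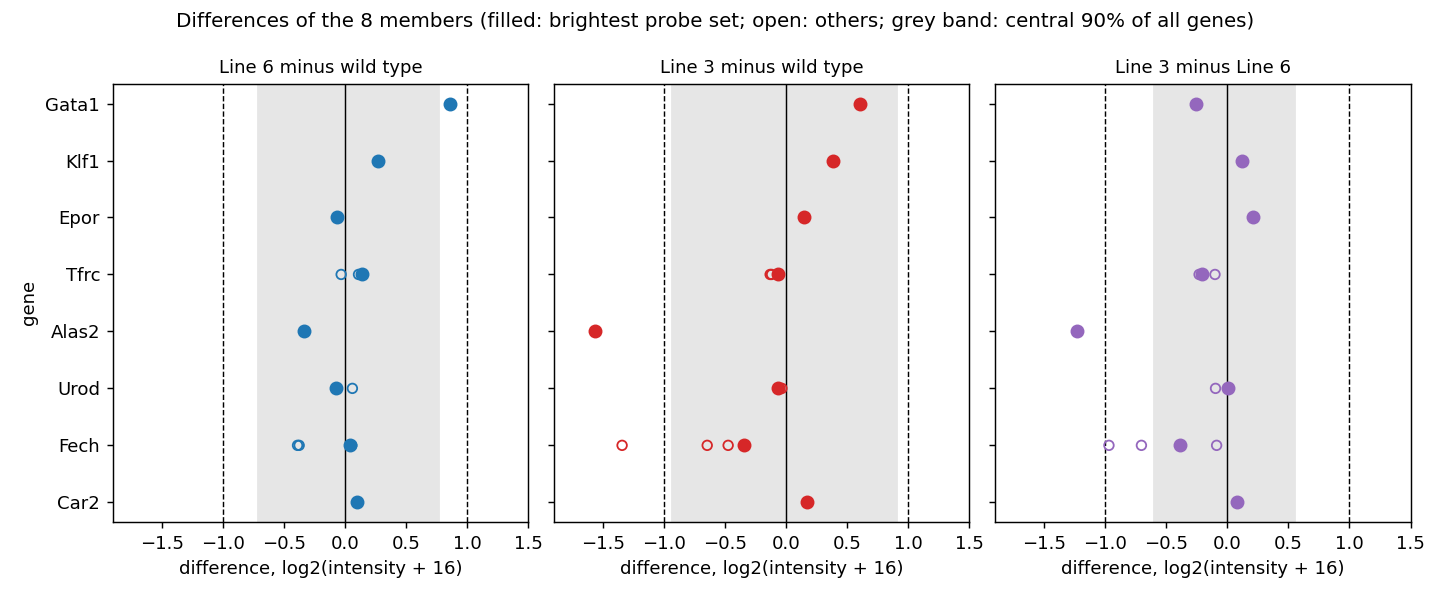
Differences of the 8 members on the log2(intensity + 16) scale for Line 6 minus wild type, Line 3 minus wild type and Line 3 minus Line 6. Filled points are the brightest probe sets, open points the others, dashed lines 2-fold and the grey band the central 90% of all 10864 genes. The filled point of Alas2 at -1.57 and -1.23 lies outside the band in both comparisons with Line 3, and that of Gata1 at 0.86 lies outside it for Line 6.

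Between the lines, Alas2 was again the member past 2-fold, 2.34-fold lower in Line 3 than in Line 6 (-1.23). Thus 1 of 8 members was lower in Line 3 and 0 were higher, where 2.29% of all genes passed 2-fold in either direction (0.709% higher, 1.58% lower). At 1.5-fold it was still 1 lower and 0 higher, beside 5.23% and 4.34% of all genes. Fech was next at -0.39, then Gata1 at -0.25, Epor at 0.21, Tfrc at -0.20, Klf1 at 0.12, Car2 at 0.08 and Urod at 0.00 on the deposited scale. After centring the order was another, with Epor at 0.41, Klf1 at 0.32, Car2 at 0.28, Urod at 0.20, Fech at -0.19, Gata1 at -0.05 and Tfrc at 0.00, while Alas2 stayed past 2-fold at -1.03. For Fech, 22.6% of all genes lay at least as far from 0, and for the 6 that follow at least 40.9% did. The standard deviation of this difference over all genes was 0.38. Of all genes past 2-fold between the lines, 30.9% were higher in Line 3 on the deposited scale and 57.9% after centring.

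In a limma fit, the lines together formed a transgenic group of 2 samples, set against the wild type array. It gave 0 of 8 members an adjusted p under 0.05 (Benjamini-Hochberg over 10864 genes), where 0 of all genes passed in either direction, and 1 member an unadjusted p under 0.05, beside 8.96% of genes higher and 6.99% lower. That member was Gata1, with a difference of 0.73, higher in 2 of 2 lines, an unadjusted p of 0.0224 and an adjusted p of 0.228, which ran from 0.168 to 0.696 over the alternative settings. Alas2 had a difference of -0.95, lower in 2 of 2 lines, and an adjusted p of 0.408, with a range of 0.0973 to 0.612 over the settings. The spread in that fit is the one between the lines, and Alas2 is the member that differed most between them.

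Gata1 and Alas2 are both on the X chromosome, and sex-linked genes differed between the arrays. Xist, the RNA of the inactive X, read 2729 in wild type cells, 6152 in those of Line 6 and 5155 in those of Line 3 on its brightest probe set. These are differences of 1.17 and 0.91, where its other probe sets gave 1.95 and 2.16 in Line 6 and 2.01 each in Line 3. The Y-linked gene Eif2s3y read 2325, 978 and 1031 on its brighter probe set. On their brightest probe sets, the Y-linked Kdm5d gave -0.71 and -0.50 and Uty gave -0.27 and -0.11. Other Kdm5d probe sets ran from -0.82 to 0.04. The 320 X-linked genes kept had median differences of 0.10 in Line 6 and 0.13 in Line 3, beside 0.06 and 0.12 for 10514 autosomal genes. The part of sex in the member differences was not tested.

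The other genes of the pathway came from 7 lists of erythroid genes, which left 80 genes once the members were set aside and dim genes removed. In Line 6, 1 of the 80 was at least 2-fold lower and 0 were higher, beside 2.41% and 2.57% of all genes. In Line 3, 3 were higher and 2 lower, 3.75% and 2.50%, near the 3.57% and 4.46% of all genes. Between the lines 0 of the 80 passed, beside 2.29% of all genes. The 3 higher in Line 3 were Tfr2, Gata2 and Socs2, and the 2 lower were Hbb-b2 and Socs3. Socs3 was also the 1 gene lower in Line 6. After centring, the Line 6 medians of all 7 lists lay below 0, from -0.60 to -0.10, beside -0.17 for all genes. Medians near 0 turned elsewhere too, that of haem synthesis in Line 6 to 0.03 with quantile normalization and, in Line 3, those of haem and iron handling and of erythropoietin signalling below 0 with cyclic loess.

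**Figure D3:**
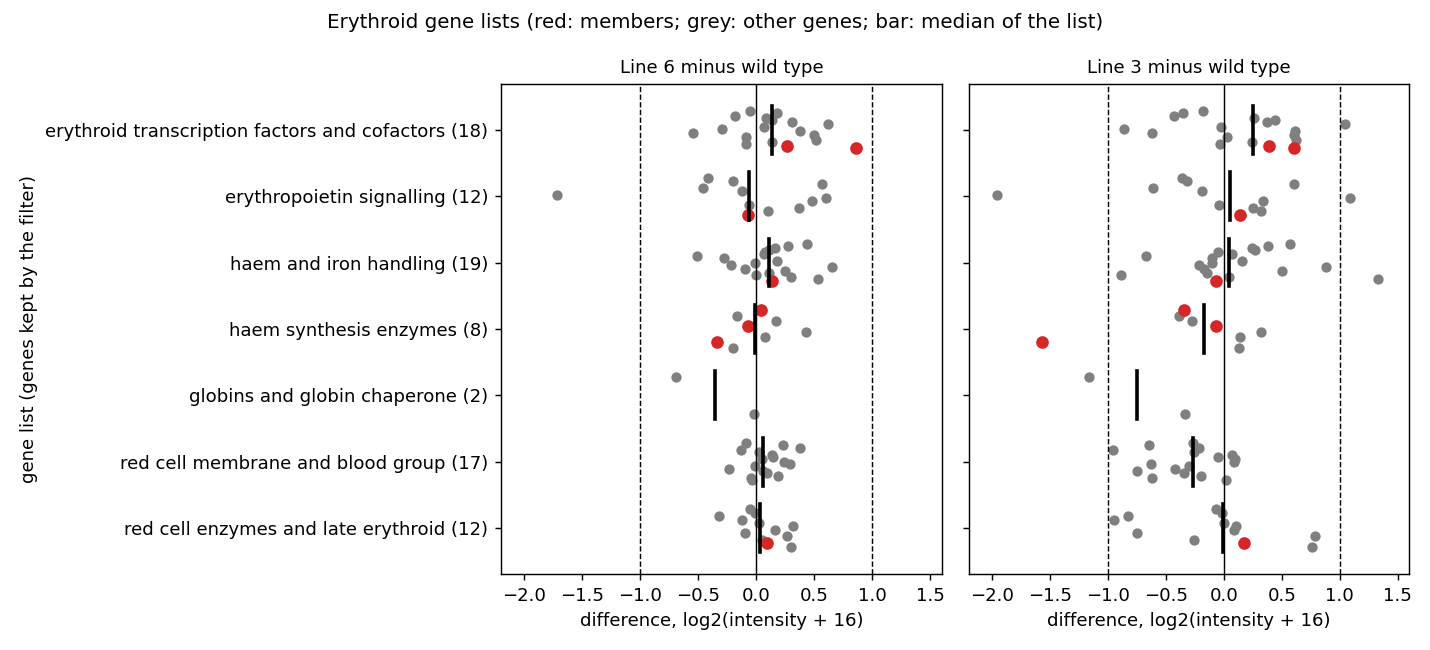
Differences from wild type (log2 scale) of the genes kept in 7 erythroid lists, in Line 6 (left) and Line 3 (right). Red points are members, grey points other genes, black bars list medians and dashed lines 2-fold. In Line 3 the red cell membrane list lies mostly left of 0, with 13 of 17 genes below it.

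Among 18 transcription factors and cofactors of erythroid cells, 1 was at least 2-fold higher in Line 3 (Gata2) and 0 passed otherwise in either line. The median differences were 0.14 in Line 6 and 0.25 in Line 3. Gata2, the factor that GATA1 replaces as progenitors mature, read 1984 with wild type RNA, 3056 with Line 6 RNA and 4114 with Line 3 RNA, differences of 0.62 and 1.05. Nfe2, a factor of globin and platelet genes, read 3511, 2409 and 2280. E2f2, a cell cycle factor of maturing erythroblasts, read 4858, 3956 and 2666, with -0.29 in Line 6 and -0.86 in Line 3. Gfi1b, a repressor that works with LSD1, gave 0.50 and 0.61 and was named after its values were seen.

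In erythropoietin signalling, 12 genes were kept and 1 was at least 2-fold lower in both lines. Socs3, a feedback inhibitor of cytokine receptors, read 627 on the wild type, 180 on the Line 6 and 149 on the Line 3 array. Socs2, another member of that inhibitor family, read 117, 185 and 266, with differences of 0.60 and 1.09. The 2 inhibitors lay on opposite sides of wild type, and the Line 3 difference of Socs2 fell just inside 2-fold after quantile normalization (0.99) and cyclic loess. Kit, the stem cell factor receptor, gave 0.56 and 0.60, and the survival gene Bcl2l1 gave -0.46 and -0.61. The list medians were -0.07 in Line 6 and 0.05 in Line 3. Socs3 is induced by many cytokines. Of 12 neutrophil markers on the same arrays, 2 were at least 2-fold lower in Line 6 (2.41% of all genes). In Line 3, 4 were at least 2-fold lower (4.46% of all genes), and 4 others lay above wild type. The medians of the 12 markers were -0.23 and -0.51. Their sums were 173095 in wild type cells, 138029 in those of Line 6 and 123986 in those of Line 3. Their part in the Socs3 values was not tested.

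Of 19 genes of haem and iron handling, 1 was at least 2-fold higher in Line 3 and 0 passed in Line 6, with medians of 0.11 and 0.04. Tfr2, the second transferrin receptor, which binds the erythropoietin receptor, read 387 with wild type RNA, 565 with Line 6 RNA and 994 with Line 3 RNA. Hmox1, the haem-degrading enzyme that is high in macrophages, read 902, 1426 and 1674. On the same arrays, 8 tissue macrophage markers lay at or above the median in wild type. Of these, 5 were at least 2-fold higher in Line 6 and 6 in Line 3 (2.57% and 3.57% of all genes). Another 4 (Cd5l, Mertk, Siglec1 and Spic) were kept only through the lines and passed in both, and the sum over 13 was 10904 on the wild type, 15741 on the Line 6 and 18522 on the Line 3 array. The part of macrophages in the Hmox1 values was not tested. Flvcr1, a haem exporter, gave -0.51 and -0.67. Slc25a37, mitoferrin, which brings iron into the mitochondrion for haem synthesis, read 3021, 3026 and 1630, which put Line 3 at -0.88, and was named after its values were seen.

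Of 8 haem synthesis enzymes on the arrays, each by its brightest probe set, Alas2 was the 1 past 2-fold, in Line 3. The list medians were -0.01 in Line 6 and -0.17 in Line 3. Uros, uroporphyrinogen III synthase, read 777 in wild type cells, 1054 in those of Line 6 and 975 in those of Line 3. These are differences of 0.43 and 0.32, where a dimmer Uros probe set gave 0.47 and -0.24. Cpox read 2626, 2950 and 2166, and Ppox, the enzyme before Fech, read 1585, 1414 and 1211. Alad, the second enzyme, gave 0.08 and 0.14. A dimmer Alad probe set gave 1.03 in Line 6, past 2-fold, and 0.63 in Line 3. The last 3 enzymes, Cpox, Ppox and Fech, had Line 3 differences of -0.28, -0.38 and -0.34 on their brightest probe sets, all inside 2-fold. Other probe sets gave 0.18 and -0.72 for Cpox in Line 3. For Ppox they gave -0.58 and, on the dimmest, 0.44. In Line 6, the brightest probe sets of Cpox and Alad turned below 0 after centring, at -0.07 and -0.16.

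Of the adult globin genes, 2 were bright enough to be kept, and 1 of them was at least 2-fold lower in Line 3. Hbb-b2, an adult beta-globin, read 12796 with wild type RNA, 7900 with Line 6 RNA and 5724 with Line 3 RNA, differences of -0.69 and -1.16. A far dimmer Hbb-b2 probe set, below the array medians at 72.3, 65.0 and 33.5, gave -0.12 and -0.84, inside 2-fold. Hba-a2, an adult alpha-globin, read 9457, 9308 and 7505. Adult globin genes come in near-identical copies, so which copy these probe sets measured is uncertain. The other 4 globin genes on the arrays, the probe set paired with Hba-a1 and the embryonic Hba-x, Hbb-y and Hbb-bh1, lay below the array medians on all 3 arrays.

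Red cell membrane and blood group genes held no gene past 2-fold in either line among 17 kept. In Line 3, 13 of the 17 lay below wild type and the median was -0.26, where 60.6% of all genes lay above 0 and their median was 0.12. In Line 6, 11 of 17 lay above 0 with a median of 0.06, which turned to -0.17 after centring. The Line 3 median stayed between -0.35 and -0.26 under the 4 scalings. Dmtn (dematin, -0.95 in Line 3), Epb42 (a band 3 binding protein, -0.74), Cd36 (-0.64) and Kel (the Kell antigen, -0.63) were the leading genes. Slc4a1, the band 3 anion exchanger, read 12742 on the wild type, 12348 on the Line 6 and 8268 on the Line 3 array, and was named after its values were seen. The summed intensity of the 17 was 40555, 42326 and 32661.

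Among 12 red cell enzymes and late erythroid genes, none passed 2-fold in either line. Tmcc2 (-0.95 in Line 3) and Mxi1 (-0.83) lay on the low side, and Car1 (0.76) and Pklr, the red cell pyruvate kinase (0.78), on the high side. Hemgn, a nuclear protein of erythroid cells chosen after its values were seen, read 6049 in wild type cells, 5657 in those of Line 6 and 3588 in those of Line 3. Over the whole list the medians were 0.04 and -0.01.

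The sorted fraction was set beside lists of markers. Of 12 stem and progenitor markers on the arrays, 8 were at or above the array median in wild type and 10 in each line, Kit and Cd34 among them, and Ly6a is not analysed here. Among the 8, 1 was at least 2-fold higher in Line 6 and 3 in Line 3, beside 2.57% and 3.57% of all genes. Mecom and Procr were kept only through the lines and passed in both. All 10 kept markers lay above wild type in both lines, with medians of 0.63 and 1.05, and 0.40 in Line 6 after centring. The part of these cells in the member differences was not tested. Of the 6 lineage marker genes on the arrays, 6 lay at or above the median in wild type and in Line 6 and 5 in Line 3, with Itgam, an integrin of myeloid cells, at 2653, 1088 and 713. That list, with Ptprc in it, was drawn up here. The antibodies used are not stated, so the list does not test the depletion. Of 10 B cell marker genes, 7 passed 2-fold upward in Line 6 and 0 in Line 3 (2.57% and 3.57% of all genes). Genes that mark maturing cells were bright too, among them the globin and membrane genes above and the eosinophil gene Prg2 (19638 in wild type). Kdm1a read 2104 with wild type RNA, 2575 with Line 6 RNA and 2979 with Line 3 RNA on its brighter probe set and 916, 911 and 1482 on the other, which cannot be split into endogenous and transgenic RNA.

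Genes with the pair of differences nearest to that of a member were found among 10393 named genes, over 3 arrays. For Alas2 these were Cyp39a1 (-0.34 in Line 6 and -1.67 in Line 3), Ovgp1 (-0.45 and -1.61) and Plekha4 (-0.26 and -1.48). For Gata1 they were Slc25a23 (0.88 and 0.61), Zmym4 (0.82 and 0.60) and Bcas1 (0.84 and 0.65). The nearest gene lay 0.10 from Alas2 and 0.02 from Gata1 on the log2 scale. For each of the other 6 members, the 3 nearest genes lay within 0.02.

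**Figure D4:**
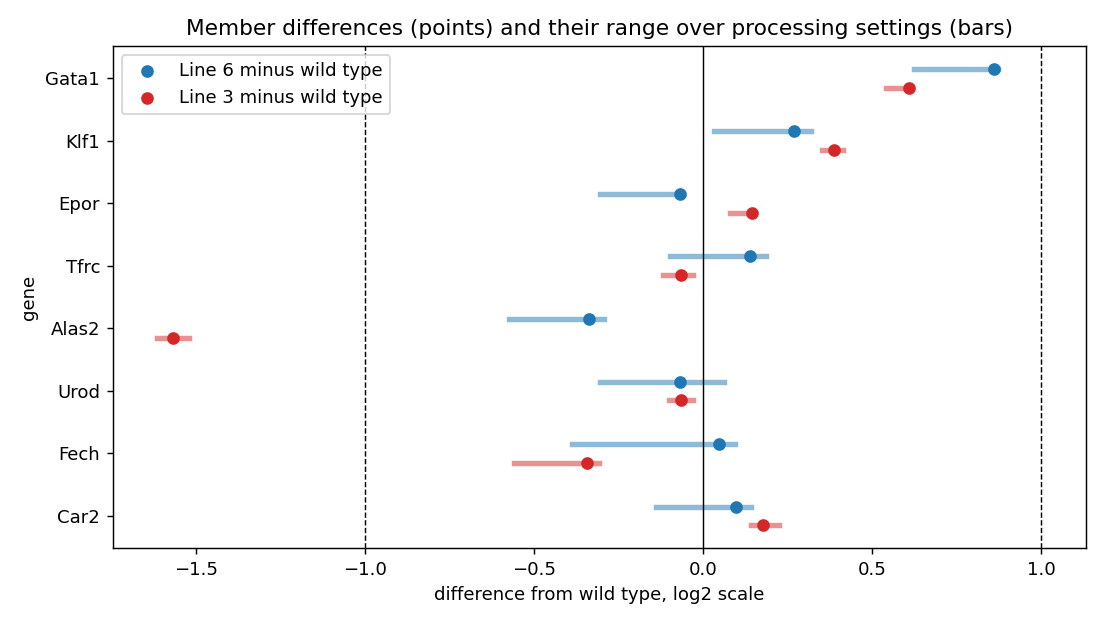
Difference of each member from wild type on the deposited scale (points) and its range over the alternative settings (bars), for Line 6 and Line 3, on the log2 scale. The Alas2 bar for Line 3 stays beyond the dashed 2-fold line, the Gata1 bars stay between 0.54 and 0.87, and the Line 6 bars of Tfrc, Urod, Fech and Car2 cross 0.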

How the data were processed

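Values were measured on 3 Affymetrix GeneChip arrays, 1 per genotype. Per the labels' protocols, Trizol RNA was amplified with the Ovation Pico WTA System and biotin-labelled from 3 ug. The authors deposited linear intensities, 1 for each probe set on each array; how they were summarised and with which software is not stated in these sources. The deposited intensities had the same mean after trimming 2% from each end (497 on each array), which shows a prior scaling. No detection calls were used, so low intensities cannot be told from background.

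The annotation gave 34945 probe sets 1 symbol and 932 several, and left 9160 unlisted. By Entrez identifier, 34741 matched the RefSeq table (GRCm38.p6), and 204 kept the annotation's symbol. Each gene was represented by its brightest probe set (highest mean over the arrays), transformed as log2(intensity + 16), and kept when at least 1 array lay at or above its own median. With 1 array per genotype, the number of arrays limits precision and differences have no error. Where limma was used, both lines formed 1 group; whether they share litters or batches is not given, so its p-values measure only the spread between these samples.

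The members and lists were chosen with earlier results of these data known. Named genes were the 8 members, up to 4 genes per list with the largest mean absolute difference, the 3 nearest genes to each member, and Kdm1a. Any other gene named was chosen after its values were seen. Calculations were tested on simulated data. Alternatives were quantile normalization, median centring, cyclic loess, pseudocounts of 1 and 64, filters at percentile 75 or none, plain _at probe sets, the median of a gene's probe sets, and limits of 1.5-fold and 3-fold. Software was limma 3.58.1 in R 4.3.3, and pandas 2.3.3, numpy 2.4.6, matplotlib 3.10.9 and scipy 1.17.1 in Python 3.11.15.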

Additional observations from a re-analysis of the deposited data

How the results depend on the processing

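All 8 members passed every filter, so the filters could not change a member value and are left out here. Of the other 75 alternative values of the member counts and medians, 69 stayed within 1.5 times the reported count or within 0.38 (the standard deviation of Line 3 minus Line 6 over all genes) of the reported median. Some of these were fixed beforehand, as a count of 0 at 2-fold is also 0 at 3-fold. The 0.38 exceeds the reported medians. Medians that changed sign after centring, to -0.16 in Line 6 and 0.10 between the lines, are thus among the 69. The tally therefore says little about stability. With a limit of 1.5-fold, 1 member was higher in Line 3 and 1 in Line 6 (Gata1 in both), against 0 at 2-fold. With a limit of 3-fold, 0 members were lower in Line 3 against either other array, where 1 was at 2-fold. With plain _at probe sets those 2 counts were also 0, because Alas2 has no such probe set and 7 members had values. For single members 164 of 165 values moved by less than 0.38, the exception being Fech in Line 6 at -0.39 with plain _at probe sets. Gata1, Klf1, Epor, Alas2 and Car2 have a single probe set each. The probe set settings could not move these, and their values are in the 164. Sign changes within 0.38 count as unmoved too, such as Car2 (0.10 to -0.14) and Tfrc (0.14 to -0.10) in Line 6 after centring. The Alas2 differences past 2-fold kept their sign wherever they had a value. The limma count, 0 of all genes on the deposited scale, says nothing about stability. Over all genes, counts ran with the setting from 60 to 1007 higher and 68 to 753 lower in Line 6, from 59 to 1636 and 193 to 1116 in Line 3, and from 14 to 472 and 39 to 568 between the lines, against 279 and 262, 388 and 484, and 77 and 172. No paired analysis was possible because the labels give no replicate numbers and each group has 1 array. Values near an array's median are the least certain, as background is not known.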

Other observations

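The carbonic anhydrase family, to which Car2 belongs, held 16 genes on the arrays, of which 8 passed the filter and 0 reached 2-fold in either line, beside 4.98% of all genes in Line 6 and 8.03% in Line 3. Over all 16, the median was 0.24 in Line 3 and 0.09 in Line 6. Over the 8 kept, it was 0.66 in Line 3 and, in Line 6, 0.20, which turned to -0.04 after centring. Car5b was kept only through Line 3, where it is high. Besides Car1, the dimmer genes Car3 (157, 296 and 302 on the wild type, Line 6 and Line 3 arrays), Car9 (130, 192 and 274) and Car13 (134, 259 and 240) led the list. Car8 lay below the median on every array, at 45.5, 16.5 and 8.89.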
